A study of Mus musculus with 24 samples.

Results

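Mitochondrial ribosomal proteins were followed through 6 groups of mouse brown fat. The genes were taken by name: every listed gene whose symbol begins with Mrpl or Mrps followed by a digit. This gave 77 of the 13162 genes listed in any of the 5 deposited tables, 48 named for the large subunit (Mrpl) and 29 for the small one (Mrps), and each of the 77 was listed in all 5 tables. The rule reads names alone, and below large and small subunit genes are so called by symbol unless a sentence says otherwise.

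The study compared interscapular brown adipose tissue of male C57BL/6 mice aged 10 to 12 weeks, all collected at one hour of the light cycle (ZT 10). Control mice carried the floxed HDAC3 gene without Cre, and the mice called KO carried the same floxed gene with Ucp1-cre. Ucp1-cre is driven by a brown adipocyte gene, so other cells of the depot keep Hdac3, and RNA came from the whole tissue. For each genotype, 1 group stayed at 22 °C, and the other two spent 24 h at 15 °C and were then returned to 22 °C for 24 h (1 day) or for 7 days. These last groups are called 24 h and 7 d below, and no group was collected in the cold itself. Each of the 6 groups had 4 libraries, which the labels describe as biological replicates without naming the animals. The series' design text asks whether an effect of cold lasts in control and HDAC3-deficient mice.

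The mitochondrial ribosome translates the few messages that mitochondrial DNA encodes, all of them for subunits of the respiratory chain and of ATP synthase. Its RNAs come from mitochondrial DNA, and all of its proteins are encoded in the nucleus and imported. The small subunit binds the message and reads its codons, and the large subunit joins the amino acids and hands the new chain to the inner membrane. Brown fat burns fuel through a dense respiratory chain, uncoupled by Ucp1. HDAC3 is a histone deacetylase that works in nuclear receptor corepressor complexes and is known in brown fat as a regulator of Ucp1 and of respiratory genes. Some symbols mislead. Mrps30 and Mrps18a sit in the large subunit of the known structures, and Mrps36 is now known as Kgd4, a subunit of the 2-oxoglutarate dehydrogenase complex of the citric acid cycle.

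The tables give a mean RPKM (a read count divided by the length of the gene and the size of the library) for each group, a log2 fold change, and a p-value of edgeR with its adjusted p. There is no value per library, so no SD can be given, and the spread between the 4 libraries of a group enters only through the authors' p-values. A standard error (SE) below was rebuilt from a deposited fold change and its p. All fold changes and adjusted p-values of single genes are those of the authors' deposited tables. A gene is called higher or lower where the authors' adjusted p was under 0.05. Library totals recovered from the smallest steps of the means ran from 4.64e+06 to 1.25e+07 reads (mean 8.39e+06, SD 1.90e+06, n = 24). A mitoribosomal gene received between 10.4 (Mrpl23) and 1215 (Mrpl12) reads per library on average, with a median of 293. Because 25 of the 77 genes overlap another gene in the RefSeq annotation and the library kit does not mark strand, values of those genes may include reads of the neighbour. The group means leave out the authors' normalization factors. Across all genes the ratio of the means, KO over Control, therefore differs from the deposited log2 fold change by a median of -0.235 at 22 °C and -0.14 at 24 h, and fold changes are given on the deposited scale. Hdac3 itself had a mean RPKM of 26.1 in Control and 8.57 in KO at 22 °C, 27.1 and 6.43 at 24 h, and 25.4 and 7.43 at 7 d, lower in KO at each time. Ucp1 had a mean RPKM of 1607 in Control and 32.8 in KO at 22 °C, 4966 and 3884 at 24 h, and 2948 and 2163 at 7 d.

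Promoters are shown for 7 genes, chosen after their values were seen: 3 with large changes in KO (Mrps36, Mrpl34, Mrps22), one that stayed high in KO (Mrps18b), one that was level in all groups (Mrpl17), and a pair that starts back to back (Mrps11 and Mrpl46). The sequences are RefSeq's, from 250 bases before to 50 after the start of the gene, in build GRCm38.p6, whereas the authors counted reads on mm9. Promoters were at hand for 68 of the 77 genes. Capitals mark matches, on either strand, to motifs of factors long linked to genes of mitochondrial proteins: the NRF1 motif, CCGGAAG for the ETS factors (NRF2/GABP), TNAAGGTCA for the ERR nuclear receptors and the YY1 motif. Forms of the NRF1 and YY1 motifs can be read in Mrpl17 (its second run of capitals) and in Mrps11 (where it lies on the other strand). A match is a description of the letters and not a measured binding site. The genes' promoters follow, each read 5′ to 3′ on the gene's own strand.
Mrps36, chr13:100744610-100744909, minus strand: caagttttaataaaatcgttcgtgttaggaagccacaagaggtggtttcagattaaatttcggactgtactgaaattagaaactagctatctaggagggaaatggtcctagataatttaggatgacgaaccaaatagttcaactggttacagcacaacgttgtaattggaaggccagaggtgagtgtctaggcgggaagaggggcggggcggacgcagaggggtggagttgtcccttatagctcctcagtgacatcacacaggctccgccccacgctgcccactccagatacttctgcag
Mrpl34, chr8:71464676-71464975, plus strand: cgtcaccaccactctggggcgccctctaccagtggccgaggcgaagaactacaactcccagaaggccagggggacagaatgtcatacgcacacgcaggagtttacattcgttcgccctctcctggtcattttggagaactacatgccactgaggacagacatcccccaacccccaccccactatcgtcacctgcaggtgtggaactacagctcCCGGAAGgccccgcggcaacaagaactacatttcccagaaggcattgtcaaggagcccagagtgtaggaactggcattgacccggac
Mrps22, chr9:98601630-98601929, minus strand: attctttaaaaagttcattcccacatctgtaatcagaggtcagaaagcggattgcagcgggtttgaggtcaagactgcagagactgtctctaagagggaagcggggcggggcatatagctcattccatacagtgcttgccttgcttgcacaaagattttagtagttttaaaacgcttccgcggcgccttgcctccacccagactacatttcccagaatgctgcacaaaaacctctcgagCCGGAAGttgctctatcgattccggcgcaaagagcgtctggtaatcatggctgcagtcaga
Mrps18b, chr17:35916391-35916690, minus strand: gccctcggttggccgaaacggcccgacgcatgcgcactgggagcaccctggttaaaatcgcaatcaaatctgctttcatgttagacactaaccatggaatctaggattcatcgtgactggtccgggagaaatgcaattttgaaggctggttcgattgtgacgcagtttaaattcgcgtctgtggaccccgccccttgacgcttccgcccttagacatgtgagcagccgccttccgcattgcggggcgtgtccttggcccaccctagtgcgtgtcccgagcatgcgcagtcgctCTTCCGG
Mrpl17, chr7:105811038-105811337, minus strand: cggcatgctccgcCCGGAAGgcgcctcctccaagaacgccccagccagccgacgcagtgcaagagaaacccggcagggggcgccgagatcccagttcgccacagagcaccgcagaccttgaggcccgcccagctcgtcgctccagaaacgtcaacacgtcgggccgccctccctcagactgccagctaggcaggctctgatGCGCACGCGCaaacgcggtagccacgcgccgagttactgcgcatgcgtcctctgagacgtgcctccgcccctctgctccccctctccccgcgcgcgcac
Mrps11, chr7:78782881-78783180, plus strand: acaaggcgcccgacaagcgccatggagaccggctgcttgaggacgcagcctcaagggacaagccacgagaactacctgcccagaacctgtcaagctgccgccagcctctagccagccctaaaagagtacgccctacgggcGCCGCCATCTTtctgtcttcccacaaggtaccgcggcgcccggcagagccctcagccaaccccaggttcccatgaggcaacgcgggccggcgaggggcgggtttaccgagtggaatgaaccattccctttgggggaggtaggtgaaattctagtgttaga
Mrpl46, chr7:78783040-78783339, minus strand: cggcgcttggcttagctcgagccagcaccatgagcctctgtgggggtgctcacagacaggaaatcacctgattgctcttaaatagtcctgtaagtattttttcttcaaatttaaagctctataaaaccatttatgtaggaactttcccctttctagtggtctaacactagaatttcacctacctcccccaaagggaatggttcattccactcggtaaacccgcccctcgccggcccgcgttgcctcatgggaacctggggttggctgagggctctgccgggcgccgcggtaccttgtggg

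The ETS motif begins 37 bases before the gene start in Mrpl34 and 11 bases before it in Mrps22, and 43 bases after it in Mrps18b. Mrpl17 holds an ETS and an NRF1 motif, which do not overlap. Mrps11 holds a YY1 motif, and none of the 4 motifs is in these windows of Mrps36 and Mrpl46. The window of Mrpl20, not printed, holds none of the 4 either, though Mrpl20 rose more in KO recovery (4.4-fold) than Mrpl34 and Mrps22. Over all 68 promoters, ETS was found in 25 (36.8%), beside 20.8% of the 8700 promoters of genes listed in all 5 tables. NRF1 was found in 13 (19.1%, beside 12.2%) and YY1 in 7 (10.3%, beside 3.07%). ERR was found in 0 of 68, beside 0.862%. Of the YY1 matches, 1 lay in the 250 bases before the start, and the others lay after it or across it. At least 1 of the 4 motifs was present in 38 of the 68 (55.9%, beside 32.9%).

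The mitoribosomal genes were expressed well above the typical gene. Their median level in Control at 22 °C was 29.2 RPKM, against 6.32 for the 11917 genes listed in all tables. Mrpl30, which holds a conserved place in the large subunit, was highest at 174 RPKM, and Mrpl23 was lowest at 4.0. Among small subunit genes the range ran from 5.87 (Mrps25) to 101 (Mrps16). These 4 genes held the ends of their subunit's range in all 6 groups. Summed over the 77 genes, the level at 22 °C was 2752 RPKM in Control and 1584 in KO, with 3520 and 3453 at 24 h and 3247 and 3349 at 7 d. KO at 22 °C was thus the low group. It was lowest of the 6 for 72 of the 77 genes (69 after centring each group on all genes), and the exceptions before centring were Mrpl17, Mrps7, Mrps18a, Mrps18b and Mrps26. Over all genes too, KO at 22 °C had the lowest median of these uncentred means (-0.25 on the log2 scale against Control at 22 °C). How many of all genes were lowest there was not counted. The heat map of levels relative to Control at 22 °C shows the low KO group as a blue column.

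**Figure D1:**
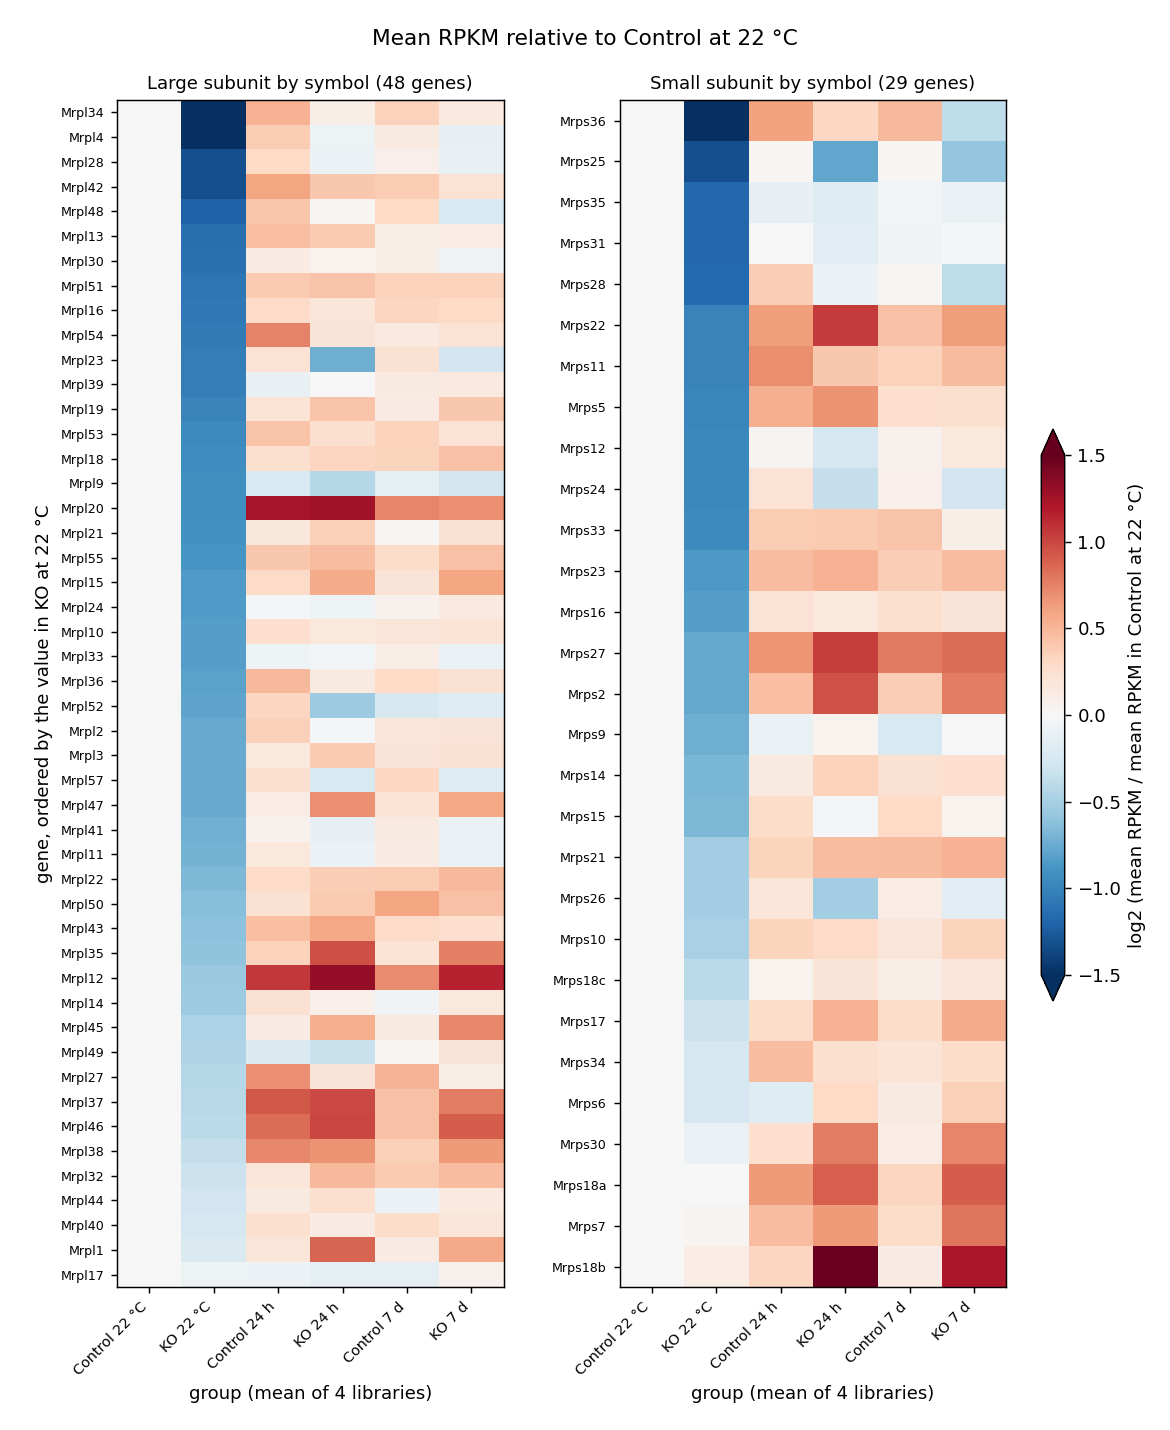
Mean RPKM of each of the 77 genes in the 6 groups (columns), as log2 of its ratio to Control at 22 °C (colour, cut at -1.5 and 1.5), with genes ordered by the value in KO at 22 °C. The KO 22 °C column is blue for nearly all genes, while the 4 recovery columns are mostly pale or red; the values are ratios of means without the authors' normalization factors.

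At 22 °C, without cold, KO brown fat held less message for most mitoribosomal genes. Of 77, 51 were lower in KO (33 of 48 large, 18 of 29 small) and 0 were higher, where 18% of all genes were lower and 16.3% higher. The median log2 fold change in the authors' deposited table was -0.53, or 1.45-fold lower, beside -0.01 over all listed genes. Summed RPKM in KO was 57.5% of Control, or 68.5% after centring on all genes. Fewer brown adipocytes and less RNA per adipocyte cannot be told apart in whole tissue.

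Among large subunit genes, Mrpl34, a small conserved protein of the ribosome's RNA core, was 3.48-fold lower (log2 fold change -1.80, SE 0.17, adjusted p = 3.50e-23). Its mean RPKM was 81.7 in Control and 19.9 in KO. Mrpl4, which lines the exit tunnel of the new chain, was 2.39-fold lower (log2 fold change -1.26, SE 0.14, adjusted p = 1.43e-18). Mrpl28 was 2.11-fold lower and Mrpl42, found in mitochondrial ribosomes and not in bacterial ones, 2.11-fold lower. The most abundant gene, Mrpl30, was 1.84-fold lower (log2 fold change -0.88, SE 0.13, adjusted p = 3.77e-11). Mrpl10, which anchors the stalk where translation factors dock, was 1.51-fold lower (adjusted p = 7.37e-05) and Mrpl11, at the base of that stalk, 1.4-fold (adjusted p = 0.00317). For Mrpl12, the stalk protein itself, the log2 fold change was -0.31 (adjusted p = 0.363), with an SE of 0.24, larger than that of most members. Mrpl3, close to the catalytic centre, was 1.44-fold lower (adjusted p = 0.00104).

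Among genes with an Mrps symbol the lowest value belonged to Mrps36, the dehydrogenase subunit, 5.6-fold lower in KO (log2 fold change -2.49, SE 0.24, adjusted p = 2.05e-23), at 3.09 RPKM against 20.5. That KO mean rests on about 20.5 reads per library, and the gene has pseudogene copies that could share reads. Of the true small subunit proteins Mrps25, not found in bacterial ribosomes, was lowest, 2.12-fold lower (log2 fold change -1.09, SE 0.15, adjusted p = 2.48e-11), Mrps35 1.93-fold and Mrps31 1.91-fold. Mrps12, which lies at the decoding centre, was 1.66-fold lower (adjusted p = 2.46e-06). Mrps7, Mrps18a, Mrps18b and Mrps30 were not lower: their log2 fold changes were 0.27, 0.24, 0.34 and 0.14, with adjusted p of 0.128, 0.186, 0.0986 and 0.52. These 4, with Mrpl1 and Mrpl17, were the 6 members with a value above 0, and none of the 6 was called. The third Mrps18 paralog, Mrps18c, had -0.17 (adjusted p = 0.353).

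Markers of other cells were compared at 22 °C too. Of 12 brown adipocyte markers 5 were lower and 5 higher in KO, of 4 white adipocyte markers 2 were higher, of 10 macrophage markers 1 was higher, and of 11 skeletal muscle markers 0 passed in either direction. Summed brown adipocyte markers were 14879 RPKM in Control and 19597 in KO, of which Fabp4 alone had 8202 and 16522. Summed white adipocyte markers were 74.5 RPKM in Control and 234 in KO, macrophage markers 131 and 163, and muscle markers 148 and 141. No marker of these lists had a group mean of 0. Their part in the mitoribosomal values was not tested.

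In Control mice, a day after the return from cold, 34 of the 77 genes were above the 22 °C group and 0 below, where 13.1% of all genes were higher and 8.67% lower. The median log2 fold change in the authors' deposited table was 0.34 (1.27-fold), against 0.01 over all genes. Large (21 of 48) and small (13 of 29) subunit genes were called at shares of 43.8% and 44.8%, with medians of 0.33 and 0.38. Mrpl20, an early-binding protein of large subunit assembly, rose most, 2.43-fold (log2 fold change 1.28, SE 0.17, adjusted p = 3.77e-11). The stalk protein Mrpl12 rose 2.2-fold (log2 fold change 1.14, SE 0.25, adjusted p = 9.42e-05). Mrpl37, Mrpl38 and Mrpl46, 3 proteins absent from bacterial ribosomes, rose 2.0-fold, 1.73-fold and 1.86-fold. Among genes with an Mrps symbol, Mrps11, of the small subunit's platform, rose 1.69-fold (log2 fold change 0.75, SE 0.16, adjusted p = 5.21e-05), and Mrps27, a pentatricopeptide repeat protein, rose 1.65-fold (log2 fold change 0.73, SE 0.16, adjusted p = 0.000196). Mrps18a, of the large subunit by structure, rose 1.62-fold. By the authors' stricter Status column, which asks for an adjusted p under 0.01 and at least 1.5-fold, 15 of the 77 were called. The share of all genes called by that column was not counted. Over the same comparison 10 of 10 macrophage markers were higher, with a sum of 131 RPKM at 22 °C and 338 at 24 h, and 0 of 11 muscle markers passed at a median log2 fold change of 0.86. Of 12 brown adipocyte markers 5 were higher and 2 lower (sums of 14879 and 20003 RPKM), and of 4 white adipocyte markers 2 were lower (74.5 and 51.9 RPKM). In the brown sums Fabp4 alone had 8202 and 9915 RPKM. The part of these lists was not tested.

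In KO mice the same step took in nearly the whole set. At 24 h, 72 of the 77 genes were higher than in KO at 22 °C and 0 lower, where 22.1% of all genes were higher and 19.8% lower. The median log2 fold change in the authors' deposited table was 1.00 (1.99-fold), against -0.02 over all genes, with 44 of 48 large and 28 of 29 small subunit genes called. Here macrophage markers (0 of 10 called, sums of 163 and 201 RPKM) and muscle markers (0 of 11, 141 and 135) did not pass the threshold. Of 12 brown adipocyte markers 7 were higher and 2 lower (sums of 19597 and 28348 RPKM), and of 4 white adipocyte markers 2 were lower (234 and 110 RPKM, median log2 fold change -1.28). In the brown sums Fabp4 alone had 16522 and 19070 RPKM, and Ucp1 32.8 and 3884. The part of these lists was not tested.

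Mrps36 rose 7.98-fold (log2 fold change 3.0, SE 0.24, adjusted p = 9.66e-35). Its mean RPKM was 20.5 in Control and 3.09 in KO at 22 °C, 31.3 and 25.5 at 24 h, and 28.7 and 15.8 at 7 d, so the KO mean was under that of Control at all 3 times and furthest below at 22 °C. Mrpl20 rose 4.4-fold (log2 fold change 2.14, SE 0.18, adjusted p = 1.01e-30), with 67.7 in Control and 35.8 in KO at 22 °C, 159 and 162 at 24 h, and 112 and 109 at 7 d RPKM. The KO and Control means of Mrpl20 lay close together at 24 h and 7 d. At 24 h its log2 fold change of KO over Control was 0.16 (SE 0.17, adjusted p = 0.588). It was called at neither time, which does not show that the genotypes were equal. Mrpl34, whose promoter above carries an ETS motif, rose 4.29-fold (log2 fold change 2.10, SE 0.17, adjusted p = 2.10e-31). It stood at 81.7 in Control and 19.9 in KO at 22 °C, 117 and 87.7 at 24 h, and 103 and 90.7 at 7 d RPKM. Mrps22, a small subunit protein whose loss causes a human mitochondrial disease, rose 4.02-fold (log2 fold change 2.01, SE 0.17, adjusted p = 2.76e-30), with 17.4 in Control and 8.7 in KO at 22 °C, 26.8 and 35.9 at 24 h, and 23.6 and 26.9 at 7 d RPKM. Here KO passed from below Control at 22 °C to above it at 24 h. Mrpl12 stood at 58.7 in Control and 39.95 in KO at 22 °C, 123 and 146 at 24 h, and 95.7 and 131 at 7 d RPKM and rose 3.54-fold (log2 fold change 1.82, SE 0.25, adjusted p = 4.98e-12). Mrpl42 rose 3.21-fold, with 123 in Control and 49.5 in KO at 22 °C, 186 and 163 at 24 h, and 160.0 and 143 at 7 d RPKM. Mrps27 rose 3.41-fold, Mrps2 3.2-fold and Mrps5, at the entry of the message channel, 3.06-fold.

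The 5 genes that were not called in KO recovery were not called in Control recovery either. Mrpl17, at the exit of the tunnel, was the flattest, with 7.28 in Control and 6.9 in KO at 22 °C, 6.87 and 6.63 at 24 h, and 6.58 and 7.61 at 7 d RPKM. Its log2 fold changes were -0.02 (adjusted p = 0.986) in Control and -0.09 (adjusted p = 0.636) in KO. Mrpl49 had 0.09 (adjusted p = 0.662) in KO, Mrpl52 0.22 (adjusted p = 0.429), Mrps26 -0.03 (adjusted p = 0.918) and Mrpl23 0.34 (adjusted p = 0.64). Mrpl23 had the fewest reads of all members, and its SE of 0.48 is too wide to show a change of the size that its neighbours had. Mrpl17 had ample reads (428 per library in KO at 22 °C) and an SE of 0.13. The line plots of 9 genes set these shapes side by side.

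**Figure D2:**
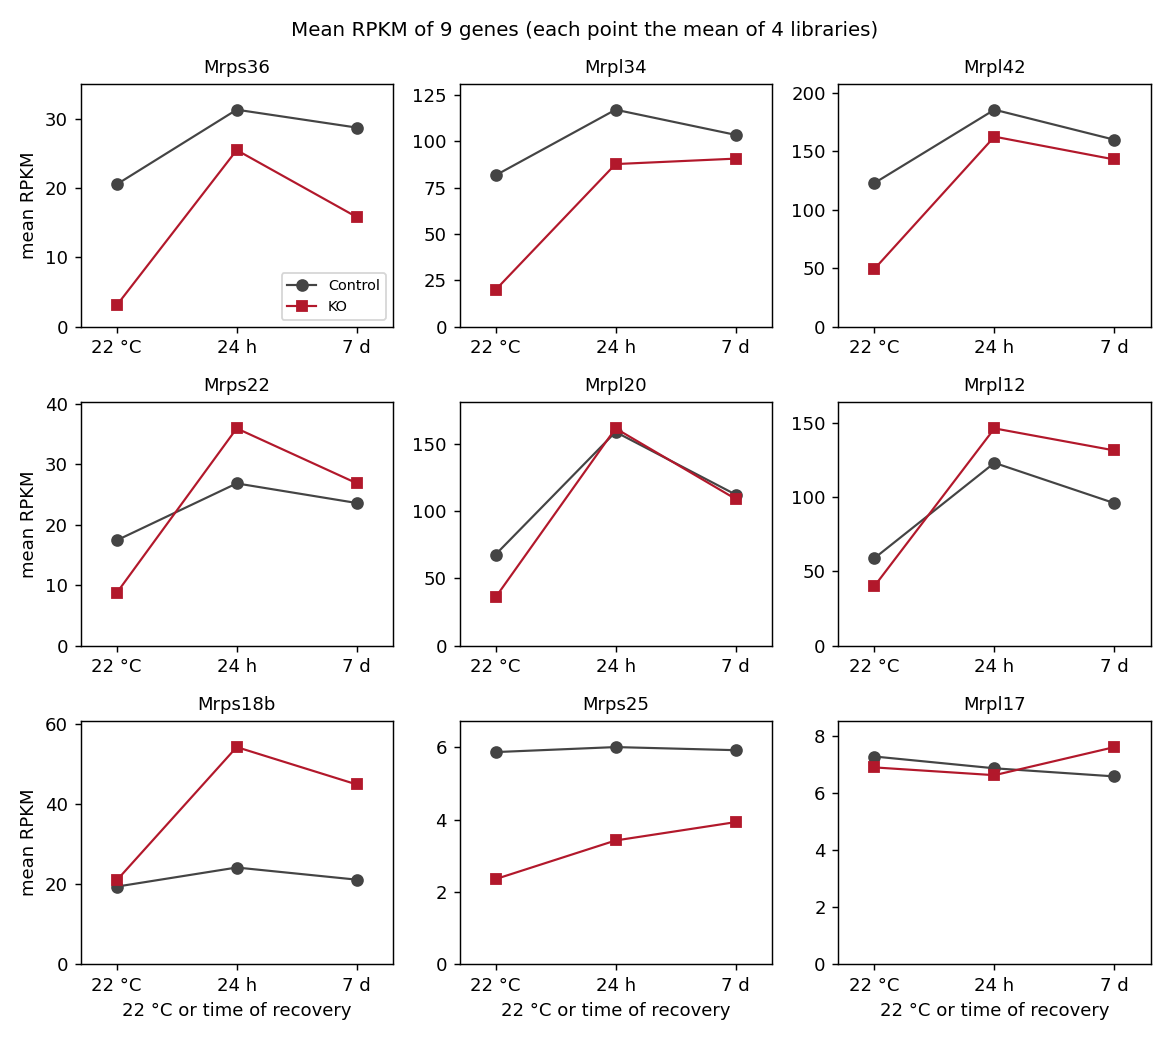
Mean RPKM (vertical axis, from 0) of 9 genes at 22 °C and after 24 h and 7 d of recovery (horizontal axis), with Control as grey circles and KO as red squares; each point is the authors' mean of 4 libraries, lines only join a genotype's points, and no error per group is given in the files. By these means, which leave out the authors' normalization factors, KO begins below Control at 22 °C in all panels but that of Mrps18b. On the deposited scale Mrpl17 too was above 0 at 22 °C (log2 fold change 0.16, adjusted p = 0.391). Mrps25 stays below Control at all 3 times.

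The step from 22 °C to 24 h was larger in KO than in Control for 45 of the 77 genes and smaller for 0, by a test of the difference of the 2 deposited fold changes adjusted over 12038 genes. Of all genes tested, 9.94% had a larger and 6.53% a smaller step in KO. The median difference was 0.67 on the log2 scale (large 0.69, small 0.60), against -0.02 over all genes, and 72 of 77 differences were above 0. Since the 4 tables of these groups add up, this difference is also the KO effect at 24 h minus that at 22 °C. Mrps36 had the widest difference, 2.32 (SE 0.31, adjusted p = 7.15e-12). For Mrpl34 it was 1.52 (SE 0.24, adjusted p = 1.46e-08) and for Mrps22 1.33 (SE 0.24, adjusted p = 7.83e-07). Mrpl47, at the rim of the exit tunnel, had 1.23 and Mrps2, of the small subunit, 1.17. For Mrpl12 the difference was 0.69 (SE 0.35, adjusted p = 0.182) and for Mrpl37 0.37 (adjusted p = 0.206), so a larger step in KO was not shown for either.

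Of the 72 genes called higher in KO recovery, 34 were also called in Control, which is all of the 34 called there. With 72 of the 77 called in KO, most of the Control calls had to fall among them. The other 38 were called in KO alone, and for 24 of these 38 the difference between the genotypes passed its own test. These 38 were picked by p-values that also enter that test, so 24 of 38 is no separate support. The same counts over all genes were not taken. Across the 77 genes the Control and KO steps had a Pearson correlation of 0.59 and a Spearman correlation of 0.56, as a description of genes that share their libraries. In the scatter plot of the 2 steps, 72 points lie above the line of equal effects. Those below it are Mrpl17, Mrpl27, Mrpl52, Mrps26 and Mrps34.

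**Figure D3:**
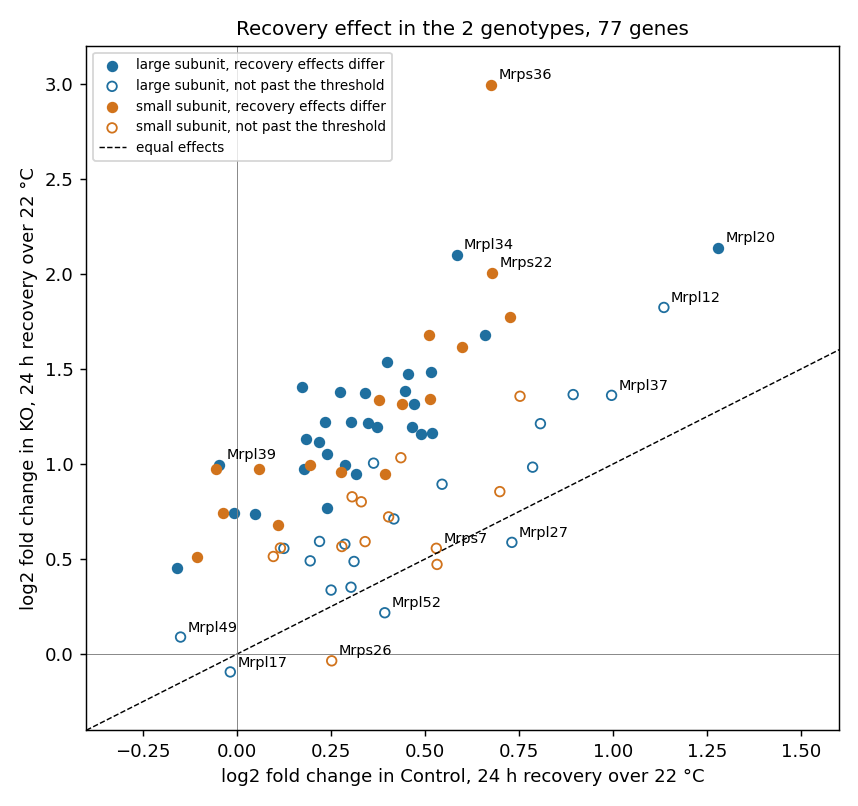
Deposited log2 fold change from 22 °C to 24 h of recovery in Control (horizontal) and in KO (vertical) for the 77 genes, blue for large and orange for small subunit, with filled points where the 2 steps differ at an adjusted p under 0.05 (45 genes). All filled points lie above the dashed line of equal steps, and Mrps36, Mrpl34, Mrps22 and Mrpl20 stand at the top.

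After recovery the summed RPKM of the set in KO was 98.1% of Control at 24 h and 103% at 7 d, or 110.3% and 108.6% after centring on all genes, so at 24 h the direction depends on the scaling. At 24 h, 15 of the 77 genes were higher and 5 lower in KO, where 10.5% of all genes were higher and 7.96% lower. The share called higher (19.5%) was above that background and the share called lower (6.49%) near it. The median log2 fold change in the authors' deposited table was 0.08, and it was -0.05 by the ratio of means, so its direction depends on the scaling; none of the called genes changed sign. At 7 d, 12 were higher and 3 lower, where 9.18% and 6.14% of all genes were. The median in the authors' deposited table was 0.11. By the Status column 9 genes were called at 24 h and 7 at 7 d, in place of 20 and 15. The shares of all genes by that column were not counted, so the 9 and 7 have no background. Brown adipocyte markers (5 of 12 higher and 1 lower at 24 h, 4 higher at 7 d) and white adipocyte markers (3 of 4 higher at 24 h) differed too, and their part was not tested. Of the genes called higher, 9 were called at both times, which is 9 of the 15 at 24 h and 9 of the 12 at 7 d: Mrpl1, Mrpl15, Mrpl35, Mrpl45, Mrpl47, Mrps2, Mrps18a, Mrps18b and Mrps30. The same overlap over all genes was not counted, so whether it is particular to this set is not known.

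Mrps18b stood out among them. Its mean RPKM was 19.4 in Control and 20.9 in KO at 22 °C, 24.2 and 54.3 at 24 h, and 21.1 and 44.9 at 7 d. The KO means at 24 h and 7 d were above all 4 other means, which lay close together. It was 2.47-fold higher in KO at 24 h (log2 fold change 1.30, SE 0.15, adjusted p = 5.49e-15) and 2.22-fold at 7 d (log2 fold change 1.15, SE 0.16, adjusted p = 3.46e-11). Mrps18b overlaps Gm16279 in the annotation. Its paralog Mrps18a, a large subunit protein despite its name, was 1.32-fold higher at 24 h (adjusted p = 0.0218) and 1.57-fold at 7 d (adjusted p = 4.86e-05). The third paralog, Mrps18c, which takes the bacterial protein's place, had log2 fold changes of 0.27 (adjusted p = 0.138) and 0.15 (adjusted p = 0.523). Mrps30, the other large subunit protein with a small subunit name, was 1.58-fold higher at 24 h and 1.61-fold at 7 d (adjusted p = 6.30e-05 and 4.71e-05).

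In the large subunit, Mrpl1, of the stalk where spent transfer RNA leaves, was 1.78-fold higher in KO at 24 h (log2 fold change 0.83, SE 0.13, adjusted p = 2.95e-09) and 1.43-fold at 7 d (adjusted p = 0.0011). Mrpl35 had 10.7 in Control and 7.02 in KO at 22 °C, 13.5 and 20.9 at 24 h, and 12.3 and 18.03 at 7 d RPKM, and was 1.7-fold higher in KO at 24 h (log2 fold change 0.76, SE 0.13, adjusted p = 1.43e-07) and 1.53-fold at 7 d (adjusted p = 6.73e-05). At 22 °C the same gene was 1.3-fold lower (adjusted p = 0.0222). Mrpl45, which ties the large subunit to the inner membrane, had log2 fold changes of 0.55 (adjusted p = 0.00109) and 0.65 (adjusted p = 6.94e-05), and Mrpl47 had 0.71 (adjusted p = 1.13e-05) and 0.44 (adjusted p = 0.0176). Lower at 22 °C and higher at 24 h or 7 d were 7 genes: Mrpl3, Mrpl15, Mrpl35, Mrpl47, Mrps2, Mrps22 and Mrps27. Another 38 of the 51 genes lower at 22 °C passed the threshold at neither later time, which does not show that they were equal. For the 7 and the 38 too, the matching counts over all genes were not taken.

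Genes that stayed low were few. Mrps25 was the only member lower in KO at all 3 times, with 5.87 in Control and 2.35 in KO at 22 °C, 6.01 and 3.42 at 24 h, and 5.92 and 3.93 at 7 d RPKM. Its Control means lay within a narrow band, and each KO mean lay below it. The log2 fold changes were -1.09 (adjusted p = 2.48e-11) at 22 °C, -0.67 (adjusted p = 0.000116) at 24 h and -0.53 (adjusted p = 0.00494) at 7 d. Mrps25 overlaps Nr2c2. At 24 h Mrpl52, Mrpl54, Mrps24 and Mrps26 were lower as well, at log2 fold changes of -0.73, -0.41, -0.45 and -0.58 (adjusted p = 0.00156, 0.0296, 0.0154 and 0.00143). At 7 d Mrps36 was 1.74-fold lower (log2 fold change -0.80, SE 0.20, adjusted p = 0.00118) and Mrpl48, which overlaps Rab6a, 1.37-fold lower (adjusted p = 0.0126). The dot plot of KO against Control at the 3 times shows the set below 0 at 22 °C and around 0 later.

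**Figure D4:**
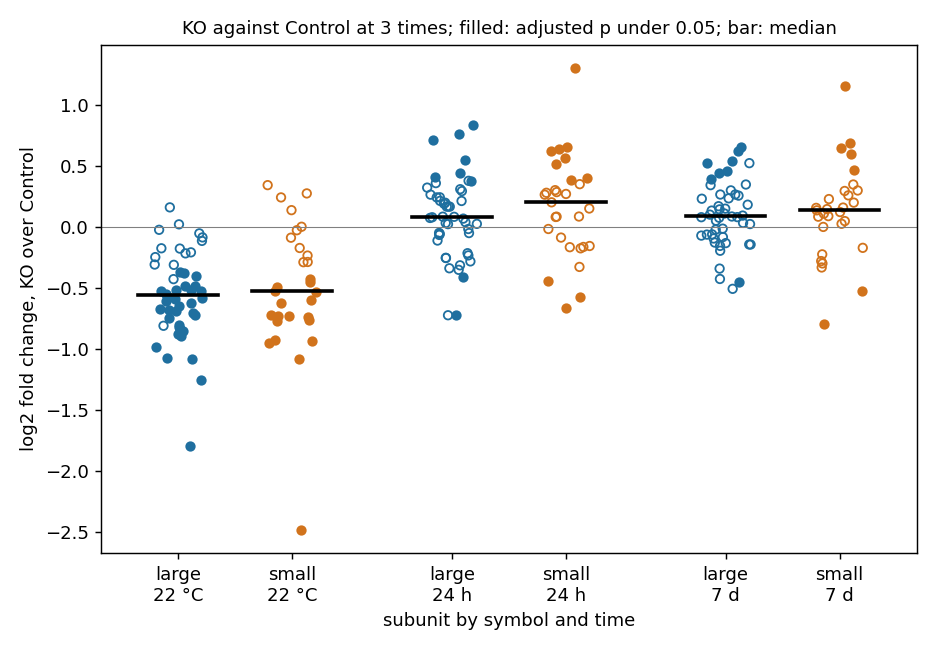
Deposited log2 fold change of KO over Control (vertical axis) for large (blue, 48) and small (orange, 29) subunit genes at 22 °C, 24 h and 7 d; each point is a gene, filled where the adjusted p was under 0.05, and bars are medians. At 22 °C the medians are -0.56 and -0.53, and at 24 h and 7 d all 4 medians lie between 0.08 and 0.20.

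The KO effect at 7 d could be compared with the others by the same test of a difference. Against 22 °C, it was shifted upward for 41 of the 74 genes that could be tested, where 9.53% of 10591 genes were, with a median shift of 0.62. Mrpl34 shifted by 1.67 (adjusted p = 5.92e-10) and Mrps36 by 1.69 (adjusted p = 3.26e-06). Against 24 h, 0 of 73 genes differed by this normal test on the edgeR fold changes, and 4 did at an unadjusted p under 0.05 (Mrpl50, Mrpl52, Mrpl54 and Mrps36), where 6.0% of all genes did, so these 4 are near the background. After adjustment 0.201% of all genes differed.

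For 7 d against 22 °C within a genotype the files hold no test, and only the ratio of means, centred on all genes, can be given. In KO all 77 genes were above their 22 °C mean, with a median of 0.98 on the log2 scale (1.98-fold). In Control 73 of 77 were, with a median of 0.32 (1.25-fold), and the exceptions were Mrpl9, Mrpl17, Mrpl52 and Mrps9. Mrps36 and Mrpl34 in KO were 4.95-fold and 4.4-fold above 22 °C at 7 d, and 1.52-fold and 1.37-fold in Control. Mrps27 and Mrpl20 led in Control, at 1.86-fold and 1.8-fold. Skeletal muscle markers summed to 823 RPKM in Control and 680.5 in KO at 7 d, against 135 to 252 in the other 4 groups, and their part in the 7 d means was not tested.

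Large and small subunit genes had medians of the same sign in each of the 5 comparisons. These medians differed by 0.14 on the log2 scale at most (KO recovery, 1.08 for large and 0.95 for small), within the spread of either subunit, whose middle genes ran from 0.68 to 1.36 and from 0.59 to 1.34 (quartiles). With Mrps30 and Mrps18a counted as large and Mrps36 left out, the medians became 1.03 and 0.95. At 22 °C the summed RPKM of KO was 53.8% of Control for large and 65.1% for small subunit genes (64.1% and 77.5% after centring). In KO against Control at 24 h, 7 of 48 large subunit genes were higher and 2 lower (18.75% called), with a median of 0.08. Of 29 small subunit genes 8 were higher and 3 lower (37.9% called), with a median of 0.20. Over all genes 18.5% were called, so the large subunit was near that share. With the subunits assigned by structure the shares were 22% of 50 large and 34.6% of 26 small subunit genes. No test between subunits was made, since genes are not replicates.

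The 6 mitoribosomal proteins that carry other symbols (Dap3, Ptcd3, Chchd1, Aurkaip1, Gadd45gip1 and Ict1, the older symbol of Mrpl58) were read from a separate list. Of these, 4 of 6 were lower in KO at 22 °C, 3 were higher in Control recovery and 6 in KO recovery. For this list and those below, 18% of all genes were lower in KO at 22 °C. The shares of all genes called higher were 13.1% in Control recovery and 22.1% in KO recovery. Ptcd3, a small subunit protein, rose 4.35-fold in KO recovery (adjusted p = 4.10e-50). Among 17 translation factors, 12 were lower in KO at 22 °C and 13 were higher in KO recovery, 7 in Control recovery. Gfm1, the elongation factor that moves the ribosome along the message, was 2.37-fold lower in KO at 22 °C (adjusted p = 7.70e-19) and rose 5.71-fold in KO recovery (adjusted p = 5.85e-73). Qrsl1, needed to charge the glutamine transfer RNA, was 3.23-fold lower and then 4.07-fold higher. In Control recovery its log2 fold change was -0.05 (adjusted p = 0.919).

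Of 27 genes for ribosome assembly and modification of its RNA, 17 were lower in KO at 22 °C and 19 higher in KO recovery. In Control recovery 5 were higher and 1 lower, beside 13.1% and 8.67% of all genes. Mterf4, which brings the methyltransferase Nsun4 to the ribosome, was the one that fell in Control recovery (-0.56 on the log2 scale, adjusted p = 0.012) and was 2.55-fold higher in KO than Control at 24 h (adjusted p = 6.79e-13). Of 25 genes of mitochondrial RNA processing, 13 were lower and 2 higher at 22 °C, and 20 were higher and 1 lower in KO recovery. Lrpprc, which holds mitochondrial messages stable, was 2.45-fold lower in KO at 22 °C and rose 3.79-fold in KO recovery (adjusted p = 5.64e-20 and 1.33e-42). Of 13 genes of mitochondrial transcription and replication, 7 were lower at 22 °C and 7 higher in KO recovery, among them Polrmt, the mitochondrial RNA polymerase. Of 7 genes for insertion of new chains into the membrane, 3 were lower at 22 °C and 5 higher in KO recovery, Oxa1l among both.

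Nuclear-encoded subunits of the respiratory chain, partners of the proteins that this ribosome makes, had larger differences at 22 °C: 78 of 83 were lower in KO and 2 higher, with a median of -1.05, beside -0.53 for the mitoribosomal genes. In KO recovery 74 of 82 were higher (median 1.22), and in Control recovery 32 of 83 (median 0.33). In KO against Control at 24 h, 15 of 83 were lower and 1 higher, and at 7 d 7 were lower and 1 higher (median -0.19), beside the 7.96% and 6.14% of all genes that were lower. The proteins of the cytosolic ribosome, a different machine, had medians near that of all genes: 14 of 85 were lower and 2 higher in KO at 22 °C (median -0.14), and 18 of 86 were higher and 9 lower in KO recovery (median 0.09). Over all genes 18% were lower and 16.3% higher in KO at 22 °C, and 22.1% were higher and 19.8% lower in KO recovery. The bar chart of list medians shows the lists side by side.

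**Figure D5:**
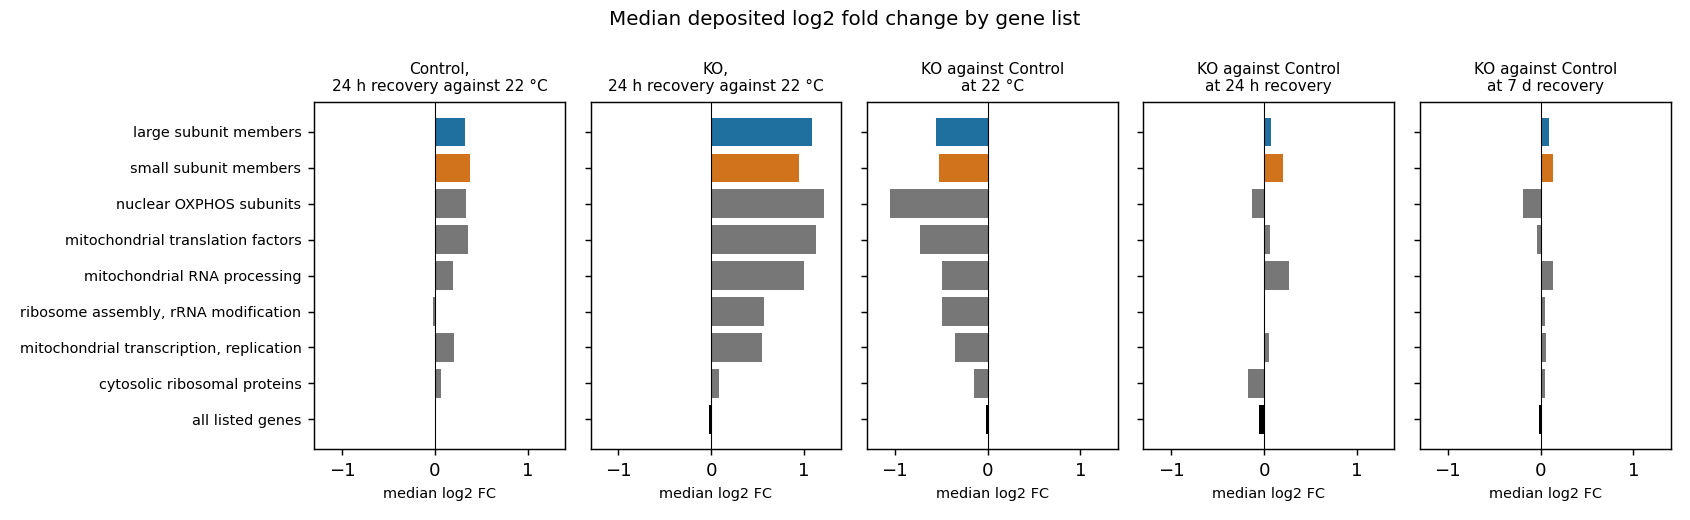
Median deposited log2 fold change (horizontal axis) of large and small subunit genes, of 6 other gene lists and of all listed genes, in the 5 deposited comparisons (panels, each with bars from 0). Bars are medians over genes and carry no error; the mitochondrial lists point right in KO recovery and left in KO against Control at 22 °C, while the cytosolic ribosome stays near 0.

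Mrps11 and Mrpl46, whose promoters above overlap and read in opposite directions, can be set side by side. In Control recovery they rose by 0.75 and 0.89 on the log2 scale, and in KO recovery by 1.36 and 1.37. At 22 °C Mrps11 was lower in KO (log2 fold change -0.77, SE 0.17, adjusted p = 7.27e-05), while Mrpl46 had -0.18 (adjusted p = 0.468), and whether these differ was not tested. Mean RPKM was 14.2 in Control and 7.14 in KO at 22 °C, 23.1 and 18.8 at 24 h, and 18.03 and 19.8 at 7 d for Mrps11, and 18.2 in Control and 13.8 in KO at 22 °C, 32.7 and 36.5 at 24 h, and 24.6 and 34.2 at 7 d for Mrpl46. In KO recovery the 25 genes with an ETS motif had a median of 1.11 on the log2 scale, and the 43 without it 0.95. With an NRF1 motif the median was 0.74 (13 genes), and without it 1.01 (55 genes). With a YY1 motif it was 1.36 (7 genes), and without it 0.97 (61 genes). None of these differences was tested.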

How the data were processed

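RNA from interscapular brown fat was sequenced after ribosomal RNA removal, in 4 libraries for each of 6 groups. The submitters' processing notes name STAR, featureCounts, edgeR and the build mm9, with no version. Per the file headers, each of the 5 tables the authors deposited holds gene length in bases, the p-value and adjusted p-value of a pair of groups, their log2 fold change and 2 means, and a log2 CPM. The group means of the authors carry no unit in the headers and were read as RPKM, from their relation to length and the CPM. A gene is listed where the larger of the 2 means reaches 0.5 RPKM. Genes were assigned by name, and no count per library was used, so no count test was run here. Not given in the sources used here are the edgeR test that was run and the counting of shared reads.

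The authors' adjusted p under 0.05 made the calls. Effects of 2 tables were compared by their difference over errors rebuilt from each p, with Benjamini-Hochberg adjustment over all genes. Each error was the size of the change divided by the normal score of p, where p was at most 0.9. The procedure was tried on simulated data. It first recovered fewer changed genes than required, and the simulated spread and the required number were then lowered. That trial does not show how well changes in these data are recovered. For the difference of the 2 recovery steps, errors that could not be rebuilt were taken from the KO against Control tables. In the comparisons of the KO effect at 7 d with the other times, such genes were left out. That left 74 members against 22 °C and 73 against 24 h. The labels call the 4 libraries of a group biological replicates and name no animals, and p-values measure the spread between these libraries. Named genes were those with the largest change or smallest p per subunit and comparison, those called against the main direction, those not called in KO recovery, the ends of the level range and members of known role, plus genes of smallest p from the other lists. Members and lists were chosen with earlier results of these data known. The comparisons of the KO effect at 7 d with the other times, the printed promoters and the partner genes were chosen after seeing values. Computation used Python 3.11.15, numpy 2.4.6, pandas 2.3.3 and scipy 1.17.1. Alternatives were the call threshold, the adjustment, a level filter, the scaling, the subunit assignment, the promoter window and genes without overlap.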

Additional observations from a re-analysis of the deposited data

Results flagged for a closer look

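The step from 22 °C to 24 h of recovery was larger in KO than in Control, by a test of the difference itself, for 45 of the 77 members. Of all genes tested, 9.94% had a larger step in KO. Listed here are the 23 of these that are among the 43 members named by the rule. That rule picks in part by large changes in these same data, so 23 of 43 is not a result of its own. The differences, KO minus Control on the log2 scale, were 0.813 (Mrpl1), 0.897 (Mrpl3), 0.94 (Mrpl4), 0.63 (Mrpl10), 0.859 (Mrpl20), 0.823 (Mrpl28) and 0.948 (Mrpl30) among large subunit genes. Further large subunit genes had 1.52 (Mrpl34), 1.14 (Mrpl35), 1.02 (Mrpl42), 0.794 (Mrpl45), 1.23 (Mrpl47) and 0.729 (Mrpl48). Among genes with an Mrps symbol they were 1.17 (Mrps2), 1.02 (Mrps5), 0.569 (Mrps12), 0.681 (Mrps16), 0.962 (Mrps18b), 1.33 (Mrps22), 1.05 (Mrps27), 0.917 (Mrps31), 1.03 (Mrps35) and 2.32 (Mrps36, of the 2-oxoglutarate dehydrogenase complex). The KO effect also differed between 7 d and 22 °C for 41 of the 74 members tested, each time upward. Because the KO 22 °C libraries enter each of these differences, they are not separate pieces of evidence.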

How the results depend on the processing

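With the authors' stricter Status column (adjusted p under 0.01 and at least 1.5-fold, an alternative chosen after seeing the data), members called went from 34 to 15 in Control recovery, from 20 to 9 for KO against Control at 24 h, and from 15 to 7 at 7 d. At an adjusted p under 0.01 alone, 13 remained past the threshold at 24 h. Among the 52 members that overlap no other gene, also chosen after seeing the data, 22 were called in Control recovery and 8 at 7 d, where fewer genes were counted. The shares of all genes called under these alternatives were not counted. The median KO effect at 22 °C was -0.77 by the uncentred ratio of means, beside -0.53. YY1 matches went from 7 to 1 when only the 250 bases before the start were searched. The other 61 alternative values kept their direction or moved by less than the limit set, except that the median at 24 h changed sign with the scaling. No paired analysis was possible because the files hold no values per library, and leaving out each replicate was not run for the same reason. Low counts limit Mrpl23 and Mrps36, 2 of the 3 members with under 50 reads per library in some group.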

Other observations

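Many mitoribosomal genes start back to back with another gene. Of the 68 members with a promoter in the RefSeq table, 24 (35.3%) had a gene on the other strand whose start lay within 500 bases, beside 21.5% of the 8700 genes listed in all 5 tables. Some partners belong to the same machinery. Mrpl47 is paired with Ndufb5, a subunit of respiratory complex I. In KO recovery both rose, by 1.41 and 1.45 on the log2 scale, while in KO against Control at 24 h Mrpl47 had 0.71 and Ndufb5 -0.13 (adjusted p = 0.592). Mrps12 is paired with Sars2, the mitochondrial seryl-tRNA synthetase. In Control recovery Mrps12 had 0.11 (adjusted p = 0.653) and Sars2 rose by 0.98 (adjusted p = 1.80e-08). Mrps27 is paired with Ptcd2, a mitochondrial RNA-processing protein, and these rose by 1.77 and 1.61 in KO recovery. Mrpl43 is paired with Twnk (listed as Peo1), the mitochondrial DNA helicase, and these rose by 1.16 and 1.00. Mrpl43 and Twnk overlap in the annotation, so their values may share reads. Mrpl49 is paired with Fau, which encodes a protein of the cytosolic ribosome, and neither was called in KO recovery (0.09 and -0.10). Mrpl30 rose by 1.13 in KO recovery and its partner Mitd1 had 0.04 (adjusted p = 0.944). Whether partners differ from each other was not tested.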
